A study of Drosophila melanogaster with 9 samples.

Results

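The larval serum proteins and lipoproteins described here are 7 fat-body genes chosen by name, of 14473 genes and repeat features in the deposited tables: the storage hexamerins Lsp1alpha, Lsp1beta, Lsp1gamma and Lsp2, and the lipid carriers apolpp, apoLTP (listed as Apoltp and matched by its synonym) and Mtp. All 7 were found, and all 7 passed the filter on low counts in each comparison. They were read in 9 paired-end RNA-seq libraries of pooled thoraces from female Drosophila melanogaster at adult day 20, with 3 libraries each for 412KD, RooKD and scramble. Every group carried a short hairpin RNA under the ubiquitous Act5C driver in the W1118 (BL5905) background, against the retrotransposon 412 in 412KD, against the retrotransposon roo in RooKD, and with a scrambled sequence in scramble. Nothing in the labels ties the 3 pools of a group to separate crosses, so p-values measure the spread between these pools, which may be technical.

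The deposited tables held 20600497 to 26177587 reads per 412KD library, 17590599 to 22361932 per RooKD library and 19766132 to 23545648 per scramble library. Replicates of a group differed well beyond counting noise, with chi-square per degree of freedom between 20.9 and 164. Reads on the 3 features of 412 averaged 0.699 ± 0.199 CPM (counts scaled to library totals) in 412KD and 0.645 ± 0.160 in scramble (SD, n = 3 each), and the features of roo averaged 11.2 ± 2.29 CPM in RooKD and 10.3 ± 2.40 in scramble. The values of 412 rest on 51 reads in all of 412KD and 42 in all of scramble, those of roo on 664 in RooKD and 680 in scramble. No source used here states how reads shared by repeat copies were counted. The mean of the targeted RNA was not lower in either set of labelled knockdown libraries, but so few reads cannot decide whether 412 RNA was lowered. Every direction given here is between libraries as they are labelled. The summed level of 10 ovary and germline markers was 574 FPKM (fragments per kilobase, scaled to library depth) in 412KD replicate 3, 69.0 in 412KD replicate 1 and 308 in RooKD replicate 1, against 0.712 to 2.40 FPKM in the other 6 libraries. A fit of the 7 libraries other than 412KD replicate 3 and RooKD replicate 1, the 2 highest in these markers, is called the 7-library fit and is given beside the results it changes, and it keeps 412KD replicate 1. Over all features, edgeR called 1.09% in 412KD against scramble, 0.791% in RooKD against scramble and 0.659% in 412KD against RooKD in that fit, and DESeq2 2.91%, 4.49% and 3.11% in the same order. Scramble replicate 3 also stood apart from the other scramble libraries for several of the 7 genes, as given gene by gene. Of the scramble pairs, replicates 1 and 2 were most alike. Their chi-square per degree of freedom was 20.9, against 60.6 and 65.5 for the pairs with replicate 3. For DESeq2 fits with 1 library left out, no share over all features was kept, so their calls are given without one.

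Hexamerins are large storage proteins that the larval fat body secretes into the hemolymph and takes back before metamorphosis as a store of amino acids. LSP1 is built from the alpha, beta and gamma chains, each from its own gene, and LSP2 from the product of Lsp2. The fat body of larvae and adults also exports lipoproteins: apolpp encodes the apolipoprotein scaffold of lipophorin, the main lipid carrier of hemolymph, Apoltp the scaffold of the lipid transfer particle that loads lipophorin with gut lipid, and Mtp the endoplasmic reticulum protein that lipidates apolipoproteins as they are made.

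The members lie at separate places on build dm6, in the coordinates of the authors' tables. Lsp1alpha (FBgn0002562) is at X:12490291-12492982 on the plus strand, Lsp1beta (FBgn0002563) at 2L:898500-901316 on the plus strand, and Lsp1gamma (FBgn0002564) at 3L:66430-68995 on the plus strand. Each of these 3 genes has 2 exons, and they encode 816, 789 and 772 residues in the order given. Lsp2 (FBgn0002565), a single-exon gene at 3L:12129393-12131869 on the plus strand, encodes 701 residues. The carriers are far larger, except for Mtp. apolpp (FBgn0087002) spans 4:1060969-1077273 on the plus strand with 8 exons and 3351 residues, and Apoltp (FBgn0032136) spans 2L:9634179-9656026 on the plus strand with 20 exons and 4333 residues. Mtp (FBgn0266369) lies at 2L:20919094-20922876 on the minus strand with 6 exons and 886 residues. The antisense gene asRNA:CR11538 overlaps 2096 bases of Lsp2, but it held at most 2 reads in any library of the 412KD table. Zyx overlaps 4033 bases of the apolpp span on the other strand and held 1483 to 2281 reads a library, against 72619 or more for apolpp. No source used here states whether counting used strand or how reads shared by the related Lsp1 genes were handled.

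In these adult thoraces the carriers were abundant, and the hexamerins had lower group means than every carrier, except Lsp1beta in scramble. Levels between genes are compared in FPKM, a scale per gene length. apolpp averaged 626 ± 87.0 FPKM in 412KD, 803 ± 293 in RooKD and 418 ± 164 in scramble (SD, n = 3 each), and it ranked between 66 and 273 among 12354 protein-coding genes in the 9 libraries. Apoltp averaged 62.1 ± 13.7, 66.9 ± 16.3 and 45.7 ± 10.9 FPKM in 412KD, RooKD and scramble, and Mtp 52.2 ± 23.1, 61.0 ± 11.7 and 42.7 ± 9.59 FPKM in the same order. The ranges of Apoltp and Mtp overlapped in every group. Lsp1beta averaged 16.3 ± 5.73 FPKM in 412KD, 51.5 ± 16.1 in RooKD and 79.9 ± 43.4 in scramble. It stood below Mtp without overlap in 412KD, overlapped Mtp in RooKD, and overlapped Apoltp and Mtp in scramble. Lsp2 followed with 4.64 ± 5.27, 23.9 ± 28.5 and 12.3 ± 10.6 FPKM in 412KD, RooKD and scramble. In RooKD replicate 1, however, Lsp2 lay above Lsp1beta, at 56.6 against 33.8 FPKM. Lsp1alpha, with 0.245 ± 0.210, 0.421 ± 0.591 and 2.6 ± 3.18 FPKM, and Lsp1gamma, with 0.133 ± 0.136, 0.208 ± 0.104 and 0.171 ± 0.0643 FPKM, were lowest in all 3 groups, and their ranges overlapped in each.

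**Figure D1:**
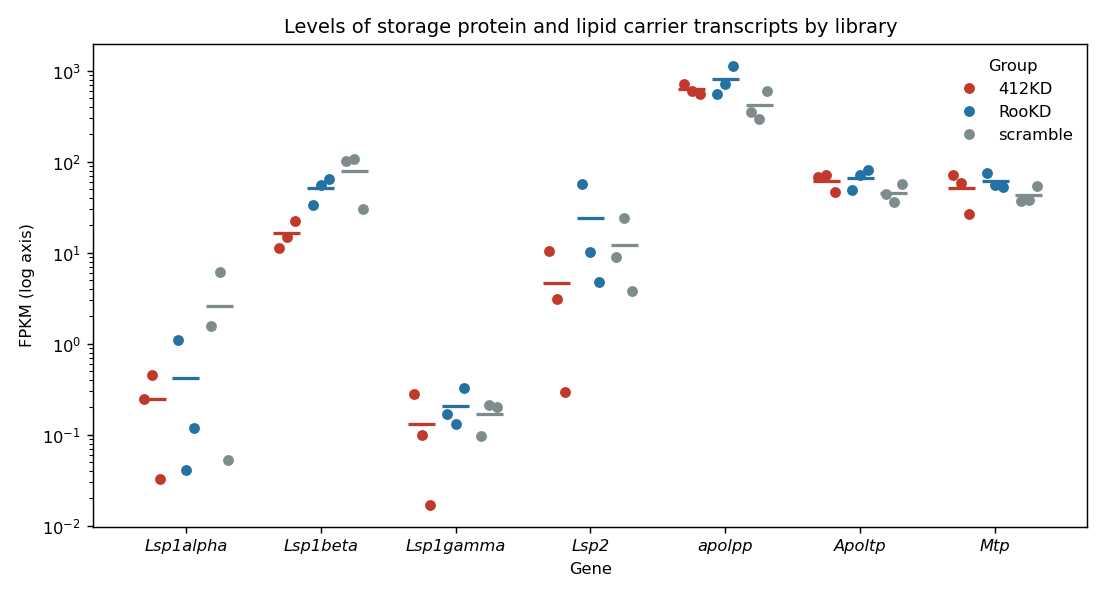
FPKM of the 7 genes in each library, on a log axis, with 412KD left, then RooKD, then scramble; points are libraries and bars are group means. apolpp lies highest in every library, Lsp1beta lies lowest in 412KD, and Lsp1alpha and Lsp1gamma lie mostly under 1 FPKM.

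Lsp1beta was the member that separated the libraries labelled 412KD from both other groups. It had 576, 1008 and 1459 reads in the libraries of 412KD, against 1989, 2801 and 2858 in those of RooKD and 6881, 6194 and 1780 in scramble (replicates 1 to 3 in each list here). The corresponding levels were 11.4, 15.0 and 22.6 FPKM in 412KD, 33.8, 55.4 and 65.2 in RooKD, and 101, 109 and 30.0 in scramble. All 412KD libraries lay below all RooKD and all scramble libraries, while scramble replicate 3 lay below all RooKD libraries.

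For 412KD against scramble, Lsp1beta had a log2 fold change of -2.31 ± 0.53 (SE, 95% interval -3.57 to -1.04), and edgeR's quasi-likelihood test gave a Benjamini-Hochberg adjusted p of 0.233 over 10431 features. It therefore missed the threshold of 0.05 in edgeR, and it passed in DESeq2, with a log2 fold change of -2.30 and an adjusted p of 2.11e-05. DESeq2 called it in 5 of the 6 fits with 1 library left out and lost the call without 412KD replicate 2, where the adjusted p was 0.0812. In edgeR the adjusted p ran from 0.0895 to 0.714 as each library was left out, and the log2 fold change from -2.70 to -2.03. The log2 fold change was negative in 21 of 21 alternatives, and in the 7-library fit it was -2.6, with an adjusted p of 0.124 in edgeR and 0.00156 in DESeq2.

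For 412KD against RooKD, the log2 fold change of Lsp1beta was -1.64 ± 0.49 (SE, 95% interval -2.78 to -0.51), with an adjusted p of 0.588 in edgeR and an adjusted p of 0.0163 in DESeq2. DESeq2 kept the call in 4 of 9 fits with 1 library left out and lost it without any 1 of the 412KD libraries and without RooKD replicate 2 or 3. In the 7-library fit the log2 fold change was -2.17, with an adjusted p of 0.199 in edgeR and -2.18 with 0.0373 in DESeq2. For RooKD against scramble, the log2 fold change was -0.65 ± 0.51 (SE, 95% interval -1.90 to 0.61), with an adjusted p of 0.638 in edgeR and 0.727 in DESeq2. Without scramble replicate 3 it was -1.04, with an adjusted p of 0.00763 in DESeq2.

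**Figure D2:**
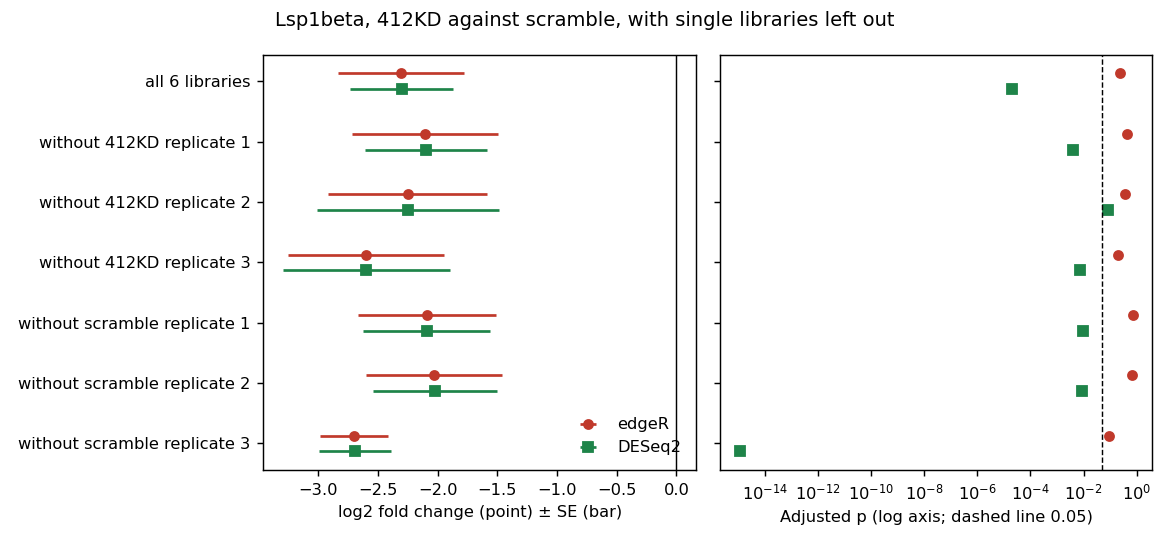
Lsp1beta in 412KD against scramble with all 6 libraries and with each library left out in turn, as the log2 fold change with its SE (left) and the adjusted p on a log axis (right), in edgeR and DESeq2. Every estimate lies between -2.70 and -2.02, every edgeR value lies right of the dashed line at 0.05, and every DESeq2 value lies left of it except the one without 412KD replicate 2.

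Over the 7 genes, edgeR called 0 in 412KD against scramble, where it called 0.0192% of all features tested. At an unadjusted p under 0.05, 1 of 7 was lower, Lsp1beta, beside 11.2% of all features in either direction and 5.35% lower. DESeq2 called 1 of 7, Lsp1beta, beside 2.39% of its features in either direction and 0.872% lower. Lsp1beta was also the single member whose groups did not overlap, beside 17.7% of all features without overlap and 9.01% with all 412KD libraries below. In RooKD against scramble, edgeR called 0 of 7, beside 0.107% of all features, and DESeq2 0 of 7, beside 2.48%. At an unadjusted p under 0.05, apolpp and Mtp were higher, 2 of 7 beside 12.7% of all features in either direction and 7.45% higher, and 0 of 7 had groups without overlap, beside 18.7%. In 412KD against RooKD, edgeR called 0 of 7 beside 0.0943% of all features, and DESeq2 called 1 of 7 lower, Lsp1beta, beside 0.593% in either direction and 0.249% lower. Lsp1beta was the 1 member at an unadjusted p under 0.05, beside 6.02% of all features and 3.21% lower, and the 1 member without overlap, beside 9.09% and 4.86% with all 412KD libraries below.

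The median log2 fold change of the 7 genes was -0.42 in 412KD against scramble, beside 0.0065 over all features tested, 0.51 in RooKD against scramble, beside 0.019, and -0.67 in 412KD against RooKD, beside 0.0033. With all libraries, the middle gene was Lsp1gamma in both comparisons of 412KD and Mtp in RooKD against scramble. In the 7-library fit these medians were 0.12, 0.33 and -0.14, so the sign in 412KD against scramble turned. That median was again the estimate of Lsp1gamma, at 1 to 13 reads a library, so it says little on the 7 genes as a set. Both comparisons with scramble share the scramble libraries. In each of them the 3 carriers had positive estimates, and Lsp1alpha and Lsp1beta negative ones.

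**Figure D3:**
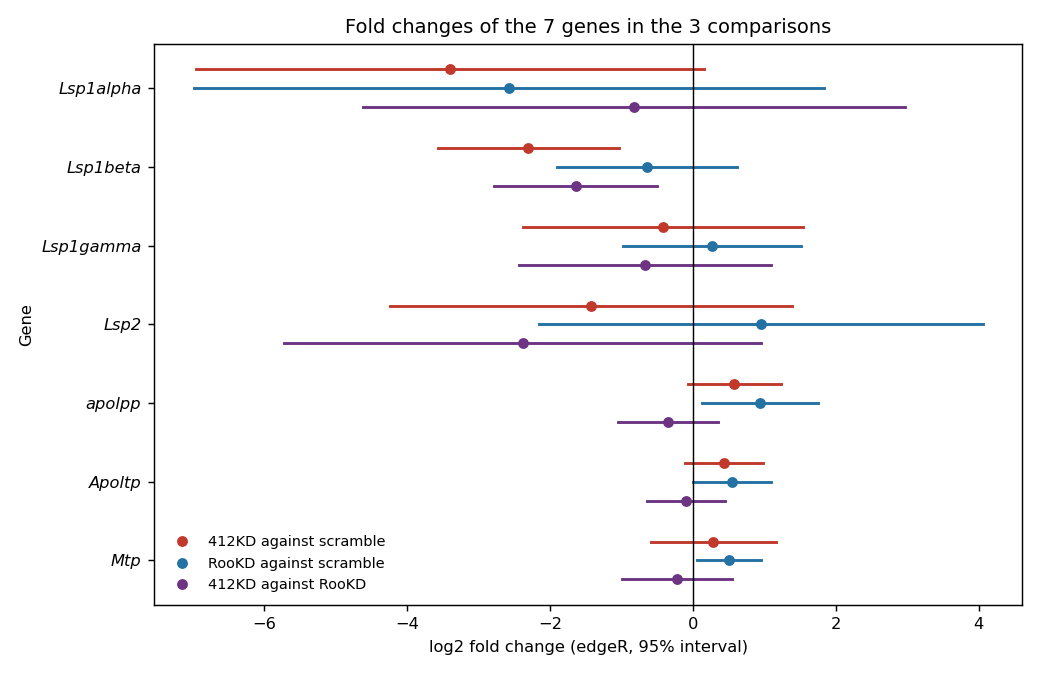
Log2 fold change of the 7 genes with 95% intervals from edgeR, for 412KD against scramble, RooKD against scramble and 412KD against RooKD. The interval of Lsp1beta lies below 0 in 412KD against scramble and in 412KD against RooKD, those of apolpp and Mtp lie above 0 in RooKD against scramble, and no adjusted p passed 0.05.

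The other hexamerins spread widely within groups, and no difference passed the threshold with all libraries. Lsp1alpha had 12, 29 and 2 reads in the libraries of 412KD, against 62, 2 and 5 in those of RooKD and 102, 336 and 3 in scramble. The high counts were those of scramble replicates 1 and 2 and, below them, RooKD replicate 1, and scramble replicate 3 lay within the range of 412KD. Its log2 fold change was -3.40 ± 1.47 in 412KD against scramble (SE, 95% interval -6.96 to 0.16), with an adjusted p of 0.464 in edgeR and 0.347 in DESeq2. In RooKD against scramble it was -2.58 ± 1.73, with an adjusted p of 0.581 in edgeR. DESeq2 called Lsp1alpha in 412KD against scramble without scramble replicate 3, at -3.98 with an adjusted p of 0.00118, and in RooKD against scramble in the 7-library fit, at -5.03 with an adjusted p of 0.0491. Without scramble replicate 2, the highest library, the estimates in edgeR were -1.75 in 412KD and -0.93 in RooKD, and over single libraries left out they ran from -4.27 to -1.75 and from -5.03 to -0.93.

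Lsp2, the hexamerin that is also known from adult fat body, had 479, 189 and 17 reads in the libraries of 412KD, against 3006, 469 and 188 in those of RooKD and 548, 1245 and 202 in scramble. RooKD replicate 1 was highest and 412KD replicate 3 lowest, and the other 7 libraries lay between 188 and 1245. The log2 fold change was -1.42 ± 1.16 in 412KD against scramble, with an adjusted p of 0.677, and 0.96 ± 1.19 in RooKD against scramble, with an adjusted p of 0.776, both in edgeR. In 412KD against RooKD it was -2.38 ± 1.41, with an adjusted p of 0.949 in edgeR. These values moved with single libraries. In 412KD against RooKD the log2 fold change was -0.68 without RooKD replicate 1, -1.82 without 412KD replicate 3 and -0.14 in the 7-library fit. In 412KD against scramble it was -0.86 in the 7-library fit and ran from -2.85 without 412KD replicate 1 to -0.47 without scramble replicate 2. The sign in RooKD against scramble rested on RooKD replicate 1, and without it the log2 fold change was -0.72.

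Lsp1gamma had 13, 6 and 1 reads in the libraries of 412KD, against 9, 6 and 13 in those of RooKD and 6, 11 and 11 in scramble. These counts overlapped in all groups, with log2 fold changes of -0.42 ± 0.82 in 412KD and 0.27 ± 0.54 in RooKD against scramble (SE) and adjusted p values of 0.870 and 0.871 in edgeR.

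The makeup of the hexamerin RNA differed from library to library. The summed level of the 4 hexamerins was 22.4, 18.7 and 23.0 FPKM in 412KD, 91.7, 65.8 and 70.4 in RooKD, and 112, 139 and 34.1 in scramble. All 412KD sums lay below all others. Lsp1beta made up 50.8%, 80.3% and 98.5% of the sum in 412KD, 36.8%, 84.1% and 92.6% in RooKD, and 90.5%, 78.0% and 88.1% in scramble. Most of the rest was Lsp2, which was 46.9% of the sum in 412KD replicate 1 and 61.8% in RooKD replicate 1, and 17.4% or less in the other 7 libraries. Lsp1alpha reached 4.43% in scramble replicate 2, its highest share.

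**Figure D4:**
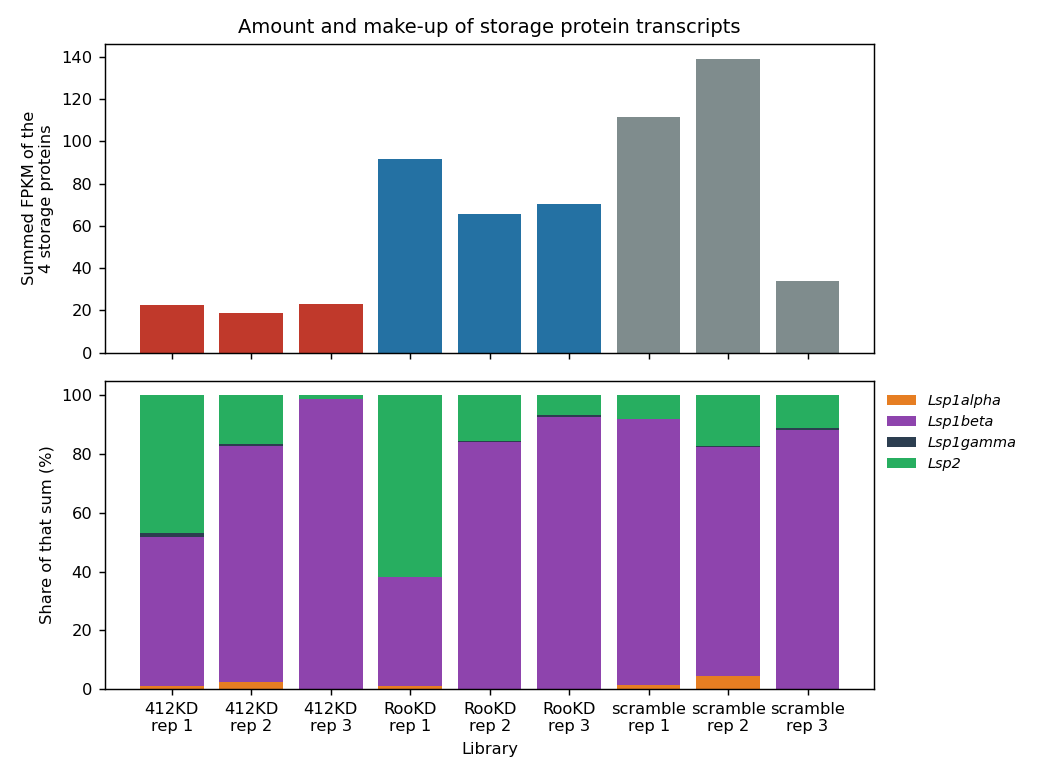
Summed FPKM of the 4 hexamerins in each library (top) and the share of each gene in that sum in percent (bottom), with 412KD left, then RooKD, then scramble. The 412KD sums lie between 18.7 and 23.0 FPKM, and Lsp1beta fills most of each library except RooKD replicate 1, where Lsp2 holds 61.8%.

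The lipid carriers were higher on average in both hairpin groups than in scramble, but no difference passed the threshold in edgeR or DESeq2 with all libraries. apolpp had 156833, 170726 and 154138 reads in the libraries of 412KD, against 141567, 155491 and 211913 in those of RooKD and 102237, 72619 and 153457 in scramble. Its levels were 724, 595 and 558 FPKM in 412KD, 562, 718 and 1130 in RooKD, and 351, 297 and 605 in scramble. Scramble replicates 1 and 2 lay below every hairpin library, and scramble replicate 3 lay within both hairpin ranges. The log2 fold change was 0.94 ± 0.35 in RooKD (SE, 95% interval 0.13 to 1.75), with an adjusted p of 0.328 in edgeR and an adjusted p of 0.0646 in DESeq2. In 412KD it was 0.58 ± 0.27 (SE, 95% interval -0.073 to 1.23), with an adjusted p of 0.488 in edgeR.

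For apolpp in RooKD, DESeq2 passed the threshold without RooKD replicate 1, at 1.13 with an adjusted p of 0.0154, without scramble replicate 3, at 1.30 with an adjusted p of 0.000759, and in the 7-library fit, at 1.13 with an adjusted p of 0.00567. For apolpp in 412KD it passed only without scramble replicate 3, at 0.94 with an adjusted p of 8.19e-05, of the 6 libraries left out in turn. No edgeR setting gave a call for apolpp.

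Apoltp had 16611, 23406 and 14528 reads in the libraries of 412KD, against 13962, 17409 and 17170 in those of RooKD and 14478, 9913 and 16483 in scramble. The groups overlapped through scramble replicate 3 and the lowest library of each hairpin group, and scramble replicate 2 was lowest of all in FPKM, at 35.8. The log2 fold change was 0.44 ± 0.23 in 412KD, with an adjusted p of 0.519, and 0.54 ± 0.24 in RooKD, with an adjusted p of 0.394, both in edgeR. DESeq2 called it in RooKD without RooKD replicate 1, with an adjusted p of 0.0378, and in the 7-library fit, with an adjusted p of 0.0148. The ratio of apolpp to Apoltp in FPKM was 10.7, 8.26 and 12.0 in 412KD, 11.5, 10.1 and 14.0 in RooKD, and 8.0, 8.30 and 10.5 in scramble, while the level of apolpp itself ran from 297 to 1130 FPKM over the 9 libraries.

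Mtp had 3872, 4144 and 1835 reads in the libraries of 412KD, against 4676, 2987 and 2485 in those of RooKD and 2657, 2289 and 3393 in scramble. 412KD replicate 3 was the lowest library, at 26.7 FPKM and RooKD replicate 1 the highest, at 74.5 FPKM. 412KD replicate 1 was at 71.8 FPKM, so the 3 libraries high in ovarian markers held both the lowest and the highest values. The log2 fold change was 0.29 ± 0.36 in 412KD, with an adjusted p of 0.795, and 0.51 ± 0.19 in RooKD, with an adjusted p of 0.333, both in edgeR. DESeq2 called Mtp in RooKD without scramble replicate 3, with an adjusted p of 0.0137.

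The carriers as a set took 864, 726 and 631 FPKM in 412KD, 685, 845 and 1264 in RooKD, and 432, 371 and 716 in scramble. The 7 genes together held 0.700% to 0.866% of all reads in 412KD, 0.739% to 1.33% in RooKD and 0.469% to 0.779% in scramble, nearly all of them from apolpp and Apoltp. No carrier passed the threshold between 412KD and RooKD, with log2 fold changes of -0.35 ± 0.31 for apolpp, -0.095 ± 0.24 for Apoltp and -0.22 ± 0.34 for Mtp.

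**Figure D5:**
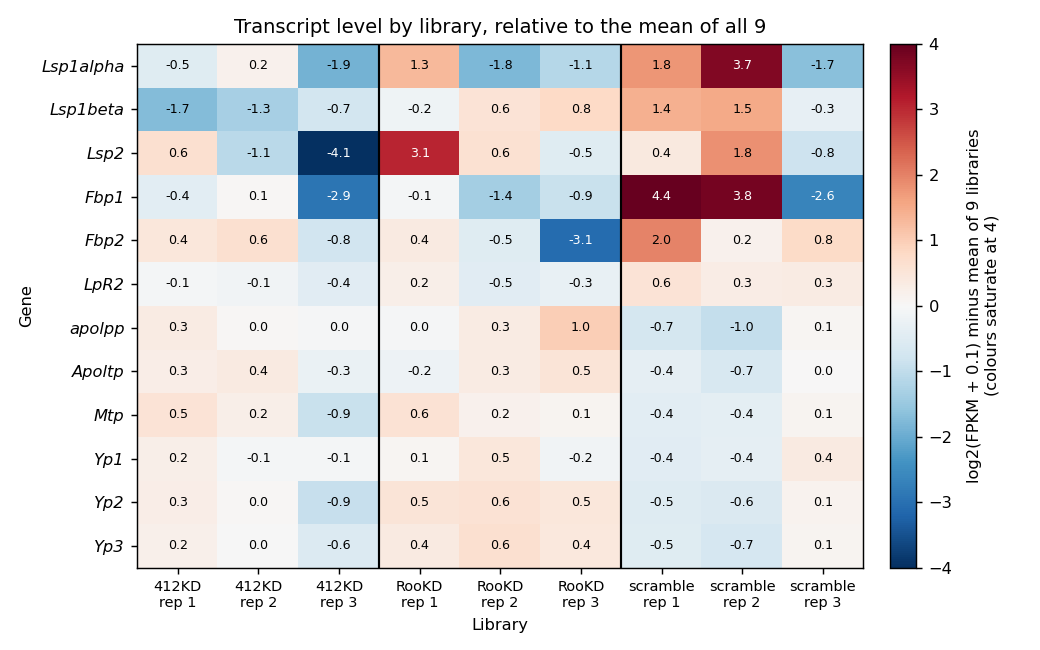
Level of 6 of the 7 genes and of Fbp1, Fbp2, LpR2 and the yolk protein genes in each library, as log2(FPKM + 0.1) minus its mean over the 9 libraries, with 412KD left, then RooKD, then scramble. Scramble replicates 1 and 2 are high for Lsp1alpha, Lsp1beta and Fbp1 and low for apolpp, while scramble replicate 3 is low for Lsp1alpha and Fbp1.

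A list of 6 genes was chosen for a relation to the hexamerins, which was not examined for Fbp2. The list also holds AOX1, an aldehyde oxidase that is no relative of the hexamerins. Fbp1, which encodes the fat-body receptor for LSP1, had 39, 75 and 2 reads in the libraries of 412KD, against 59, 17 and 23 in those of RooKD and 1710, 967 and 4 in scramble. Scramble replicates 1 and 2 were far above all other libraries and scramble replicate 3 was among the lowest, as for Lsp1alpha. The log2 fold change of Fbp1 was -4.47 ± 1.72 in 412KD and -4.49 ± 1.79 in RooKD, with adjusted p values of 0.422 and 0.412 in edgeR and 0.234 and 0.0892 in DESeq2. The prophenoloxidases PPO1, PPO2 and PPO3 are sequence relatives of the hexamerins and act in melanization. Their log2 fold changes were 1.15, 0.63 and -0.70 in 412KD and 0.74, 0.27 and 0.60 in RooKD, and neither tool called any of the 6 listed genes in either. At an unadjusted p under 0.05, edgeR had 2 of the 6 lower in 412KD, PPO3 and Fbp1, and 1 higher in RooKD, AOX1 at 0.34, and the list medians were -0.18 and 0.30. PPO3, with 31, 26 and 29 reads in 412KD and 53, 82 and 45 in RooKD, was lower in 412KD than in RooKD at -1.28 ± 0.31, with an adjusted p of 0.0497 in DESeq2 and 0.381 in edgeR. In the 7-library fit DESeq2 no longer called PPO3, and it called 1 of the 6, Fbp2, lower in RooKD against scramble.

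Among 11 receptors and partners of lipoproteins, DESeq2 called 3 in 412KD against scramble, LpR2 and Karl lower and yl higher. edgeR called 0, with 1 higher and 3 lower at an unadjusted p under 0.05. Of all features, 11.2% passed that unadjusted threshold in 412KD against scramble and 12.7% in RooKD against scramble. DESeq2 called 2.39% and 2.48% of its features in the same order, and 17.7% and 18.7% of all features had groups without overlap. The same shares stand beside the counts of the other lists. The list medians were -0.023 in 412KD and -0.012 in RooKD, where 10 of the 11 were tested. LpR2, a lipophorin receptor, had 4218, 5357 and 4187 reads in the libraries of 412KD, against 6072, 3255 and 3108 in those of RooKD and 8787, 6218 and 6547 in scramble. Every hairpin library lay below every scramble library in FPKM. Its log2 fold change was -0.62 ± 0.14 in 412KD, with an adjusted p of 0.213 in edgeR and 0.00703 in DESeq2, and -0.55 ± 0.19 in RooKD, with adjusted p values of 0.293 and 0.124. The related receptor LpR1 was at -0.011 ± 0.15 in 412KD and 0.24 ± 0.19 in RooKD, with adjusted p values of 0.982 and 0.633 in edgeR. Karl, a lipocalin, which belongs to a family that binds small lipids, had 541, 607 and 441 reads in the libraries of 412KD, against 776, 475 and 421 in those of RooKD and 1199, 949 and 1175 in scramble, again without overlap.

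Karl was at -1.03 ± 0.18 in 412KD, with an adjusted p of 0.125 in edgeR and 8.76e-05 in DESeq2, and at -0.75 ± 0.16 in RooKD, with adjusted p values of 0.145 and 0.00631. In the 7-library fit DESeq2 called Karl and LpR2 lower in both comparisons with scramble, and edgeR called Karl in 412KD and both in RooKD. The third call in 412KD, yl, is the yolk protein receptor of the oocyte. Its reads were 578, 12 and 4945 in 412KD, 2527, 0 and 0 in RooKD and 3, 0 and 0 in scramble, highest in the 3 libraries high in ovarian markers. It was not called in the 7-library fit.

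Of 17 other secreted products of the fat body, neither edgeR nor DESeq2 called any in 412KD, where 1 was lower at an unadjusted p under 0.05 and the median was 0.16. In RooKD, DESeq2 called 2 of 17 higher, the yolk proteins Yp2 at 0.80 ± 0.25 with an adjusted p of 0.00995 and Yp3 at 0.78 ± 0.26 with an adjusted p of 0.0168, while edgeR gave adjusted p values of 0.256 and 0.273 and the list median was 0.36. At an unadjusted p under 0.05, 4 were higher and 3 lower in RooKD. Of 16 genes of lipid synthesis and storage, DESeq2 called FASN1, the fatty acid synthase, and Mondo, a sugar-sensing transcription factor, higher in 412KD at 0.40 and 0.37, and FASN1, the desaturase gene Desat1 and ACC, the acetyl-CoA carboxylase, higher in RooKD at 0.94, 0.93 and 0.56. edgeR called 0 of the 16 in both, with 3 higher in 412KD and 6 in RooKD at an unadjusted p under 0.05, and the medians were 0.17 and 0.26. Of 20 genes of the response to ecdysone and juvenile hormone, the hormones that time metamorphosis, DESeq2 called Eip71CD higher in both, at 1.52 ± 0.25 in 412KD and 1.22 ± 0.19 in RooKD, and the juvenile hormone epoxide hydrolase gene Jheh3 higher in RooKD, at 0.91 ± 0.25. edgeR called 0 of these 20 in either, with 1 and 2 higher at an unadjusted p under 0.05, and the medians were 0.059 and 0.051. Between 412KD and RooKD, DESeq2 called 1 gene of the lipid list, FASN1, lower in 412KD at -0.53 ± 0.14 with an adjusted p of 0.0213, and none of the secreted, hormone or lipoprotein lists.

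The calls in these 3 lists moved in the 7-library fit. In 412KD against scramble, DESeq2 called Idgf1, Tsf1 and fon of the 17 secreted products higher. Of the 16 lipid genes it called ACC, Desat1, FASN1 and the lipase gene bmm higher and the lipid-droplet protein gene Lsd-1 lower, and it no longer called Mondo. In RooKD against scramble it called upd2 lower beside Yp2 and Yp3 higher, and 5 of the 16 lipid genes higher, Acsl and Lsd-1 beside the 3 called with all libraries. edgeR called FASN1 and Desat1 higher in RooKD, none of the lipid list in 412KD and none of the secreted list in either. Of the 20 hormone genes both tools called Eip71CD higher in 412KD and in RooKD, and Jheh3 higher in RooKD. Between 412KD and RooKD, both tools called Jheh3 and Lsd-1 lower in 412KD, and DESeq2 also called FASN1, FASN2 and Lsd-2 lower and bmm, Tsf1 and fon higher.

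Of the markers of other tissues, those of gut and oenocytes were not level across the groups. The sums of flight muscle, hemocyte and neuron markers in both hairpin groups overlapped those in scramble. The 10 flight muscle markers summed to 2052 to 2298 FPKM across 412KD libraries, 1694 to 1953 across RooKD and 1681 to 2101 across scramble. The summed level of 7 gut markers was 13606 to 18133 FPKM across 412KD libraries, 8247 to 12579 FPKM across RooKD libraries and 6536 to 9272 FPKM across scramble libraries. That of 5 oenocyte markers was 1360 to 1561 FPKM across 412KD, 1459 to 2271 across RooKD and 663 to 945 across scramble. Most of the gut sum came from alphaTry, betaTry, Jon65Aiii and Amy-p, and most of the oenocyte sum from Cyp4g1. Amy-p averaged 1303 FPKM in RooKD, below the 1424 of scramble, while the means of alphaTry, betaTry and Jon65Aiii were higher in RooKD. FASN3 averaged 5.05 FPKM in 412KD, below the 6.53 of scramble, while the means of the other oenocyte markers were higher in 412KD. The 8 fat-body markers other than apolpp summed to 23982 to 42556 FPKM in 412KD, 46048 to 53314 in RooKD and 23972 to 39244 in scramble, and none of the markers of any list was at 0 in all libraries. The yolk protein genes Yp1, Yp2 and Yp3 made up 92.3% to 95.8% of that sum in the 9 libraries. The sum with them overlapped between 412KD and scramble, and in scramble it was highest in replicate 3, the library with the highest apolpp and the lowest Lsp1beta of that group. The other 5 fat-body markers summed to 1842 to 2896 FPKM in 412KD, 2566 to 2846 in RooKD and 1593 to 1688 in scramble. Both hairpin groups lay above scramble without overlap in this sum, and Desat1 and Tsf1 made up most of it. In 412KD, Lsd-1 averaged 47.1 FPKM against 59.4 in scramble, and AkhR 15.0 against 15.5. The means of FASN1, Desat1 and Tsf1 were higher in 412KD, and all 5 means were higher in RooKD. Only FASN1 and Desat1 of the 5 lay above scramble without overlap in both hairpin groups. The part of these marker levels in the results was not tested. In RNA of whole thoraces, fewer cells of a type and less RNA per cell cannot be told apart.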

How the data were processed

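Build dm6 and the tools HISAT2 and DESeq2 are named in the submitters' processing notes, without versions; no source used here names the counting tool, the annotation release or the use of strand. Each of 2 tables deposited by the authors sets a hairpin group beside scramble, with raw counts of reads per feature, per the file headers. A normalized signal was also deposited, which is the count over a size factor of the library, and was not used. The deposited FPKM values are, from the values, counts per length over a constant for each library that is the same in both tables for scramble, so all 9 libraries were set side by side. The authors' deposited log2 fold changes and p-values were not used. Of 14166 and 14078 features, 13765 are shared. The 6 low-complexity features, with 0.0019% to 0.2439% of reads, were left out, and 5 symbols turned into dates were restored.

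The main test of the counts was edgeR 4.0.16 under R 4.3.3 (TMM, filterByExpr, robust quasi-likelihood F test, Benjamini-Hochberg adjusted p of 0.05 over all features tested), with DESeq2 1.42.0 as an alternative. Fits against scramble held the 6 libraries concerned, and the fit of 412KD against RooKD held all 9. The standard error is the absolute log2 fold change over the square root of F. The scripts were tested on simulated counts with 200 changed genes, drawn with the spread that edgeR fitted to these data. False calls over the 3 comparisons, in the order above, were 8, 14 and 4 in edgeR and 42, 32 and 30 in DESeq2. Of 100 genes changed by a log2 fold change of 1, edgeR recovered 48, 43 and 40, and DESeq2 59, 62 and 50. Of 100 changed by 2, they recovered 87, 94 and 78, and 90, 97 and 81. Calls made by DESeq2 alone are to be read with these false calls in mind. Alternatives changed the normalization, filter, libraries, replicate block and tool, and left out each library. DESeq2 fits with libraries left out, and the list counts in the fit of 7 libraries, were added after the data were seen, and genes named from those counts were chosen after their values were seen. The named genes include the 7 members and genes of the lists of hexamerin relatives and lipoprotein partners. With all libraries, up to 4 genes per other list that passed either tool were named. The fit of 7 libraries added further genes of these lists. Up to 3 of the genes most like each member were named, and none for Lsp1gamma. Genes named from the marker lists were chosen after their values were seen. Members and lists were chosen with earlier results of these data known, and 2 list entries had no match.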

Additional observations from a re-analysis of the deposited data

How the results depend on the processing

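In edgeR, 0 of the 7 genes passed under every alternative run, in all 3 comparisons. DESeq2 called 1 of 7 in 412KD against scramble, 0 in RooKD against scramble and 1 in 412KD against RooKD. With 1 library left out it called 0 to 3, 0 to 3 and 0 to 1, with no share over all features to set beside these counts. In the fit of 7 libraries, without 412KD replicate 3 and RooKD replicate 1, it called 1, 3 and 1, beside 2.91%, 4.49% and 3.11% of its features. The calls of edgeR over all features, 2, 11 and 10, moved more. For 412KD against scramble they were 14 with library totals (7 higher and 7 lower, where the main split was 2 and 0), 15 without a filter, 14 with all 9 libraries in the fit, 116 in the fit of 7 libraries, 337 in DESeq2 and 0 to 105 with a library left out, the most without 412KD replicate 3. For RooKD against scramble they were 26 without a filter, 84 in the fit of 7 libraries, 346 in DESeq2 and 0 to 44 with a library left out, the most without RooKD replicate 1 and the least without scramble replicate 2. For 412KD against RooKD they were 4 with the 6 hairpin libraries alone, where Lsp1gamma did not pass the filter, 70 in the fit of 7 libraries, 81 in DESeq2 and 2 to 22 with a library left out, the most without 412KD replicate 3.

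Samples shared a replicate number but were not treated as paired by it in the main test. Correlations of same-numbered deviations were -0.21 to 0.39, and those of differently numbered ones -0.50 to 0.36. Between 412KD and scramble, the same-numbered values of 0.080, 0.11 and 0.11 lay above all differently numbered ones, at -0.11 to 0.040. With 3 pools per group, these values cannot decide whether libraries were paired. With the replicate block, edgeR called 0, 10 and 4 features over the 3 comparisons in the order above, and 0 of the 7 genes.

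These signs reversed. In 412KD against scramble, Lsp1gamma was 0.12 in edgeR and 0.14 in DESeq2, both in the fit of 7 libraries and without 412KD replicate 3, with a range of -1.52 to 0.12 in edgeR over single libraries left out, and Mtp was -0.021 in edgeR and -0.019 in DESeq2 without 412KD replicate 1 (-0.021 to 0.60). In RooKD against scramble, Lsp2 was -0.72 in both tools in the fit of 7 libraries and without RooKD replicate 1 (-0.72 to 1.90), and Lsp1gamma was -0.18 in edgeR and -0.19 in DESeq2 without RooKD replicate 3 and -0.029 and -0.021 without scramble replicate 1 (-0.18 to 0.51). In 412KD against RooKD, Lsp1alpha was 2.17 in edgeR and 2.15 in DESeq2 in the fit of 7 libraries and 1.64 and 1.63 without RooKD replicate 1 (-1.67 to 1.64). Mtp was 0.27 in both tools in the fit of 7 libraries and 0.095 in both without 412KD replicate 3 (-0.53 to 0.095), and Apoltp was 0.073 and 0.071 without 412KD replicate 3 and 0.058 and 0.053 without RooKD replicate 3 (-0.27 to 0.073). The causes were not tested. Lsp1gamma, at 1 to 13 reads a library, and Lsp1alpha, at 2 to 5 reads in 4 of 9 libraries, are limited by depth.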

Other observations

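The genes whose levels over the 9 libraries were most like those of a member are given as a description, with Pearson's r of log2(CPM + 1), no p, and shared libraries and depth behind every value. The 9007 other genes with a mean of at least 50 normalized counts were compared, so each r given is the highest or near it among many. Membrin was closest to Lsp1beta at r = 0.976, followed by CG31223 at 0.960 and Lpin, which encodes a phosphatidate phosphatase of fat synthesis, at 0.951. GstE3, a glutathione S-transferase gene, was closest to Lsp2 at 0.976, and CG31549 to Lsp1alpha at 0.956. The reads of both GstE3 and Lsp2 were highest in RooKD replicate 1 and lowest in 412KD replicate 3. Lsp1alpha had 102 and 336 reads in scramble replicates 1 and 2, against 2 to 62 in the other libraries. CG31549 was also highest in scramble replicates 1 and 2, with 722 and 717 reads, so its r with Lsp1alpha leans on them. For the carriers, the closest were the gene a (arc) at 0.990 and Cyp4ac1, a cytochrome P450 gene, at 0.979 for apolpp, the ethanolamine kinase gene eas at 0.954 for Apoltp, and CG15293 at 0.971 for Mtp. Lsp1gamma was too low to enter.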
